A study of Mus musculus with 8 samples.

Results

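The clustered histone genes are for the most part the replication-dependent histone genes, which lie close together in the genome. Their mouse symbols begin with Hist1h, Hist2h, Hist3h or Hist4h. All 68 such symbols among the 24391 of the deposited count table were taken: 6 H1, 18 H2A, 19 H2B, 12 H3 and 13 H4 genes. The H2B member Hist3h2bb-ps is a pseudogene by its symbol and is counted with the others below. By the mm9 coordinates of the table, 54 lie in the Hist1 cluster on chromosome 13, 10 in the Hist2 cluster on chromosome 3, 3 in the Hist3 cluster on chromosome 11 and 1, Hist4h4, on chromosome 6. The members were chosen by symbol alone, but the family was selected on earlier results of the same comparison, the low values of Hist1h4i in the antibody-treated animals, so every value below that sets antibody against IgG is a description and supports nothing.

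The samples were atherosclerotic lesions of the brachiocephalic artery, the vessel that leaves the aortic arch and a common site for the study of advanced plaques, from 8 C57BL/6 mice. All 8 animals ate a Western diet for 18 weeks and were wild type animals of a smooth muscle lineage tracing line, and the labels name no other allele, no age and no Cre driver. Of these, 4 received an antibody against interleukin-1β (IL-1β) and 4 received IgG as the control. Each library held total RNA of a whole frozen lesion, which the labels call a mixture of smooth muscle, epithelial, macrophage and other cells, so fewer cells of a type and less RNA per cell cannot be told apart.

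Histones H2A, H2B, H3 and H4 form the protein core around which nuclear DNA is wound, and H1, the linker histone, binds where the DNA enters and leaves that core. The clustered genes supply these proteins while DNA is copied, and their messenger RNAs accumulate in S phase and are degraded when replication ends. Unlike other messenger RNAs they usually end in a conserved stem-loop in place of a poly(A) tail, and the stem-loop binding protein, Slbp, holds that structure during processing, export and translation. In a lesion their level is therefore often read as a sign of dividing cells, among them macrophages and smooth muscle cells. The labels do not say whether poly(A) RNA was selected, so it is not known how much histone RNA without a tail entered the libraries.

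The stem-loop is printed here because it is the sequence that sets these messages apart from others. A search for GGNNNNTNTNNNNNCC, with the first 6 bases pairing exactly with the last 6, found it after the stop codon in the GENCODE M21 transcript (GRCm38) of 46 of the 68 members. It began 21 to 58 bases after the stop codon, with a median of 31. Where a member had several annotated transcripts, a transcript with the pattern was taken if any existed, so the search favoured a match. The same pattern occurred in 264 of 58797 protein-coding transcripts, or 0.449%. That count took a match at any position and included the histone transcripts themselves, so it is not the like measure for other genes. Of the 22 members with no match, 16 had an annotated transcript that ended within 30 bases of the stop codon, so that no stem-loop could be read there. The stem-loops below come from H1, H2A, H2B and H3 genes described most closely and from several H4 genes. These H4 genes had the lowest, the highest or some of the smallest fold changes, apart from Hist1h4c at 0.62. The sequences run 5′ to 3′ on the transcript strand, with the 16 bases of the stem-loop in capitals.
Hist1h1c: caaaaGGCTCTTTTCAGAGCCaccac
Hist2h2ac: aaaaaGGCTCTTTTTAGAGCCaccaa
Hist1h2bk: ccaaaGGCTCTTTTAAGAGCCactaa
Hist1h3c: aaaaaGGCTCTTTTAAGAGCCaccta
Hist1h4i: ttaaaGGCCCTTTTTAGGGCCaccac
Hist2h4: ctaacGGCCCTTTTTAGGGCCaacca
Hist1h4d: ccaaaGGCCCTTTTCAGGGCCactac
Hist1h4c: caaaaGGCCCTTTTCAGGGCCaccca
Hist1h4j: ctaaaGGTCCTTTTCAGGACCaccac

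The stem differed by histone type. The search itself fixed a T at 2 places of the loop, so sameness there is in part set by it. The form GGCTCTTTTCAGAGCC occurred in 26 members, all H1, H2A, H2B or H3 genes, and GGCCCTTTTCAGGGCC in 7, all H4 genes. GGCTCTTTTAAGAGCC was found in 6 members of the H1, H2B and H3 types. Hist1h4i shared its form, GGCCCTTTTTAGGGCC, with 1 other member, Hist2h4, whose values were close in both groups. Hist1h4j shared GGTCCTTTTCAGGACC with Hist1h4b, which lay on the other side of 0. Fold changes were not compared over the other shared forms. Whether the stem-loop bears on the difference between the groups was not tested.

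Promoters were searched in RefSeq (GRCm38.p6), where 61 of the 68 members were matched, over the 250 bases before each annotated start. The letters searched were TATAAA on the transcribed strand and, on both strands, CCAAT, ATTTGCAT (the octamer), AAACACA (the H1 box) and GGTCCG (the core of an H4 element that the factor Hinfp binds); none of these strings contains another. TATAAA stood before 24 of the 61 members against 7.59% of 32851 promoters, and CCAAT before 50 against 33.8%. CCAAT was present in all 6 H1, 17 H2A and 16 H2B promoters and in 8 of 10 H3 promoters, but in only 3 of 12 H4 promoters (25%). ATTTGCAT was present in 7 of 17 H2A and 6 of 16 H2B promoters and in 0 of the H1, H3 and H4 promoters, against 1.6% of all promoters. AAACACA was present in 5 of 6 H1 promoters against 6.25%, and GGTCCG in 9 of 12 H4 promoters against 6.72%. A match is only a match of letters. The 120 bases before the start are printed, on the gene's strand, for the H4 gene with the lowest fold change, the H4 gene with the highest level, and 1 H2B and 1 H1 gene, with the matched letters, or their reverse complement, in capitals.
Hist1h4i, chr13:22041363-22041482, minus strand: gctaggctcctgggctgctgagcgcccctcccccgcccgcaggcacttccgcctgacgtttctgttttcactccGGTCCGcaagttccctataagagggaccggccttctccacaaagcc
Hist1h4d, chr13:23581448-23581567, plus strand: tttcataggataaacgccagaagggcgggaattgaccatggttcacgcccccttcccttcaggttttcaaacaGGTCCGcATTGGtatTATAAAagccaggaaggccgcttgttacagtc
Hist1h2bb, chr13:23746614-23746733, plus strand: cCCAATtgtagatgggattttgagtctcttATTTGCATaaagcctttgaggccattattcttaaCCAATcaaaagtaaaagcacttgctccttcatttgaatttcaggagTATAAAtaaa
Hist1h1c, chr13:23738687-23738806, plus strand: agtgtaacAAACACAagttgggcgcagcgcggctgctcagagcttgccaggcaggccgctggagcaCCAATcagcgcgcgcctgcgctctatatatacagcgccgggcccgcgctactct

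Hist1h4i and Hist1h4d both carried GGTCCG, the H4 core, within these 120 bases. Hist1h4d also had TATAAA there, while in Hist1h4i the TATAAA match of the longer window lay further upstream than the stretch shown.

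The libraries held 20137336 to 29453014 counts on genes, which did not differ detectably between the groups (two-sided exact permutation test, p = 0.229, where 4 against 4 can reach 0.0286). The clustered histone genes took 10420 to 18112 of these counts, or 0.0447% to 0.0622%. Only reads placed at a single position were counted, and near-identical coding sequences are common in this family. Of the 68 members, 9 had no count in any library (Hist1h2bq, Hist1h2br, Hist1h2ap, Hist1h4m, Hist1h2ba, Hist2h3c1, Hist2h3c2, Hist2h2aa1 and Hist2h2aa2). A further 3 fell under the filter on low counts: Hist1h2ao with 2 counts over the 8 libraries, Hist1h2aa with 1 and Hist1h1t, the testis H1 gene, with 22. The other 56 were tested. Of the 68, 10 share exons with another member, and of these only Hist1h4n was tested. The 50-base windows of an annotated member transcript that also occur in a transcript of another gene made up 0% in Hist1h1a, 28.91% in Hist1h4i and 94.00% in Hist1h2af, so a value for the latter kind of gene rests on its few distinct stretches. Among the tested members the share was 100% in Hist2h2bb and Hist2h3b, whose annotated transcripts have no distinct window. The counted exons of Hist2h2bb span 493 bases against 381 in that transcript, and where in the gene its reads lie is not known. Those of Hist1h4i span 403 bases against 727 in its transcript, so its share within the counted exons can differ from 28.91%.

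Of the 56 tested members, 39 had a lower and 17 a higher mean with the antibody, and the median log2 fold change was -0.26. Over all 15980 genes tested 52.3% were lower and the median was -0.01. The members ranged from -1.86 for Hist1h4i to 0.93 for Hist1h4j, and those 2 are both H4 genes. Values under -0.5 were found in 13 members, against 3.44% of all tested genes. In edgeR's quasi-likelihood test 0 of the 15980 genes (0%) passed a Benjamini-Hochberg adjusted p of 0.05, and 509 (3.19%) had an unadjusted p under 0.05. Among those 509 were 12 members that were lower, where the background in that direction was 2.06%, and 4 that were higher, against 1.13%. DESeq2 called 8 genes (0.0501%), 1 of them a member, Hist1h4i, and limma-voom called 0 (0%), with 466 genes (2.92%) at an unadjusted p under 0.05 against 565 (3.54%) in DESeq2. Leaving out single animals moved the members' median from -0.43 (without antibody animal 2) to -0.14 (without antibody animal 3).

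**Figure D1:**
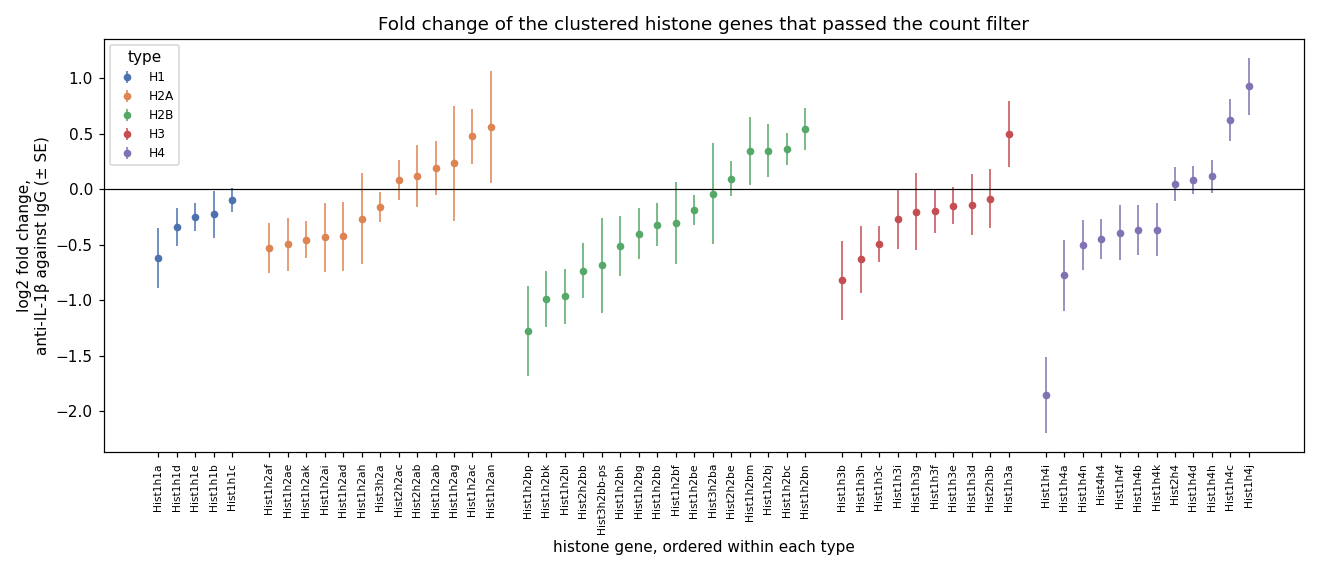
Log2 fold change of antibody against IgG (vertical axis, ± SE, 4 animals a group) for the 56 tested clustered histone genes, ordered within each type on the horizontal axis. The 5 H1 genes all lie below 0, and the H4 genes span the whole range, from -1.86 for Hist1h4i to 0.93 for Hist1h4j.

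In 10 members the 4 antibody values did not overlap the 4 IgG values. They were lower in 7 (Hist1h2bl, Hist1h2ak, Hist1h2bp, Hist1h2bk, Hist1h4i, Hist1h2af and Hist1h3c), where 1.25% of all tested genes lay apart in that direction. They were higher in 3 (Hist1h4j, Hist1h2bn and Hist1h4c), against 0.713%. All 10 lie in the Hist1 cluster, which holds 46 of the 56 tested members. The 6 tested Hist2 members had a median of 0.07, the 3 Hist3 members all lay below 0 with a median of -0.16, and Hist4h4 was at -0.45. Whether the clusters differ was not tested.

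The H1 genes were the most even type. All 5 that were tested were lower with the antibody, with log2 fold changes from -0.62 to -0.10 and a median of -0.25, and in none did the groups separate. Hist1h1c (chromosome 13, 23830676 to 23831400, plus strand) had the highest level per length of all members, at 133 CPM per kilobase (CPM are counts scaled to library size, here by TMM, edgeR's trimmed mean of M values) of exon over the 8 animals. Its CPM, in the order of animals 1 to 4 as in all such lists below, were 89.3, 111, 99.8 and 97.8 with IgG and 102, 89.4, 85.3 and 95.0 with the antibody. The 2 groups overlapped almost fully, with a log2 fold change of -0.10 ± 0.11 (SE).

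Hist1h1e, at 60.2 CPM per kilobase, had CPM of 46.3, 58.2, 48.3 and 51.9 with IgG and 50.4, 45.4, 37.1 and 38.9 with the antibody. Antibody animals 2, 3 and 4 lay below every IgG animal and animal 1 within their range, giving -0.25 ± 0.13. Hist1h1d had 25.1, 34.7, 31.1 and 24.5 CPM with IgG and 23.1, 26.6, 16.8 and 24.6 CPM with the antibody, again with overlap, and its log2 fold change was -0.34 ± 0.17. Hist1h1a, whose annotated transcript shares no 50-base window with another gene, gave the lowest H1 fold change: 10.8, 8.95, 10.6 and 7.96 CPM with IgG against 4.49, 9.85, 4.03 and 6.48 CPM with the antibody. Antibody animal 2 stood inside the IgG range and the other 3 below it (log2 fold change -0.62 ± 0.27).

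**Figure D2:**
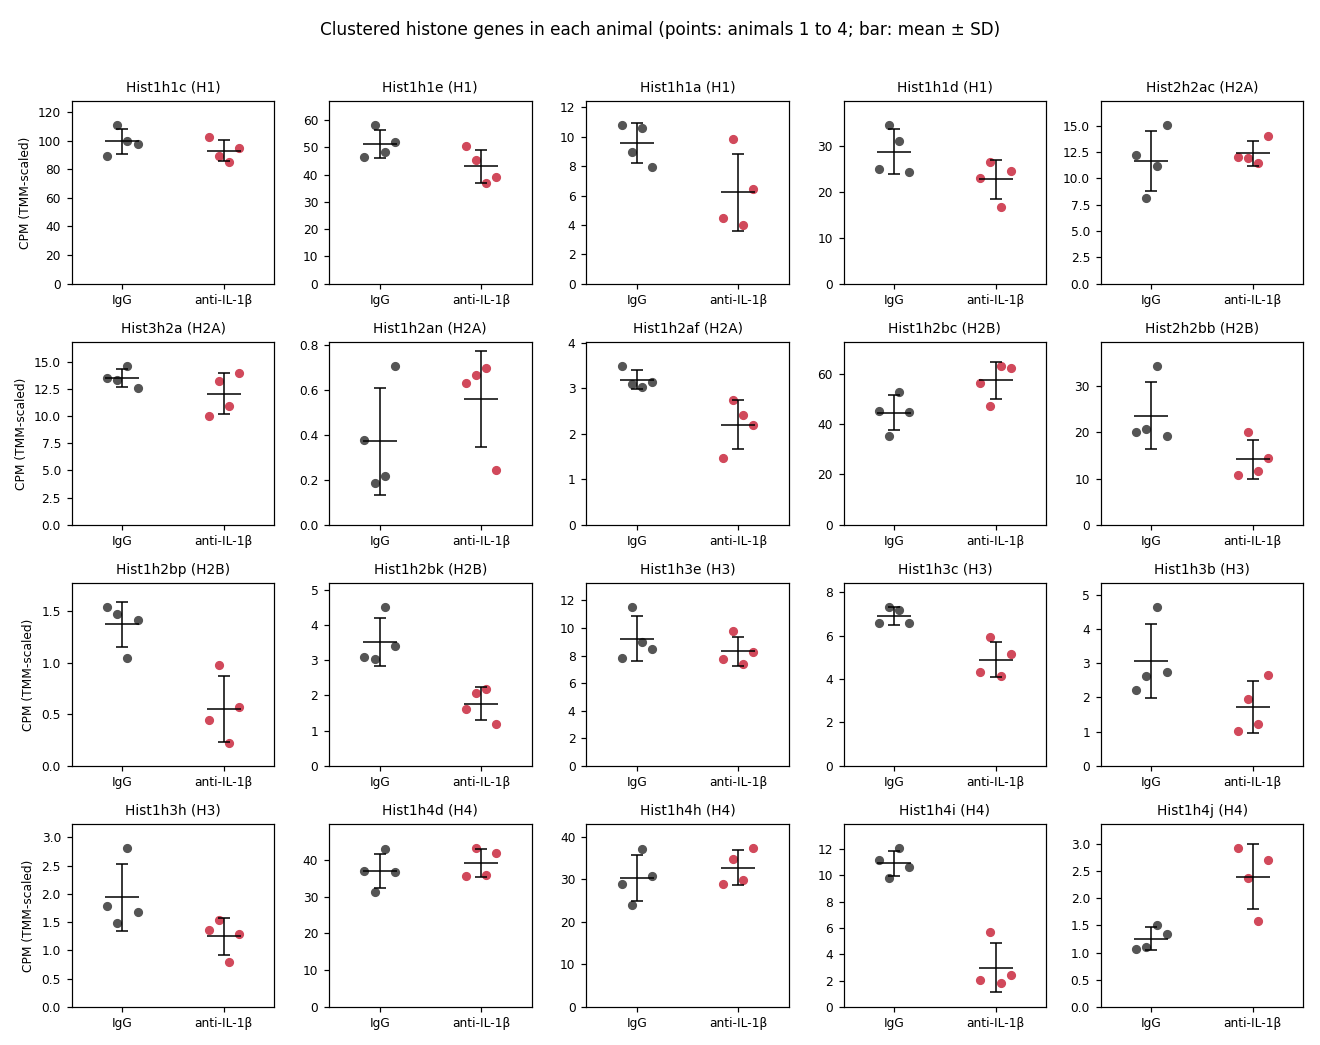
TMM-scaled CPM of 20 clustered histone genes in each animal (points, with mean ± SD bars, 4 IgG animals in grey and 4 antibody animals in red), each panel with its own axis from 0. Hist1h4i has all 4 antibody points below the IgG points, with antibody animal 2 the highest of the 4 at 5.71, and the abundant genes Hist1h1c, Hist1h4d and Hist1h4h overlap.

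The H2A genes split almost evenly, with 7 of 13 tested members lower and a median of -0.16. The most abundant per length were Hist2h2ac (25.7 CPM per kilobase) and Hist3h2a (25.2), and these neighbours in rank differed by less than their spread over animals. Hist2h2ac had 12.2, 8.12, 11.2 and 15.1 CPM with IgG and 12.1, 11.95, 11.4 and 14.04 CPM with the antibody, so the antibody values sat inside the IgG range (0.08 ± 0.18). Hist3h2a had 13.5, 13.4, 14.6 and 12.6 CPM with IgG and 10.1, 13.3, 10.9 and 14.004 CPM with the antibody (-0.16 ± 0.14), with overlap.

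The lowest H2A fold change belonged to Hist1h2af: 3.49, 3.09, 3.03 and 3.14 CPM with IgG against 1.46, 2.73, 2.41 and 2.19 CPM with the antibody. The groups did not overlap, and the log2 fold change was -0.53 ± 0.22, from counts of 30 to 102 per library. Hist1h2an had the highest fold change, 0.56 ± 0.51, but on counts of only 4 to 21 per library, with 0.376, 0.184, 0.216 and 0.709 CPM with IgG and 0.635, 0.666, 0.700 and 0.243 CPM with the antibody. IgG animal 4 and antibody animal 4 each lay with the other group.

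The H2B genes spread more widely, from -1.28 to 0.54, with 11 of 16 tested members lower and a median of -0.31. The pseudogene Hist3h2bb-ps, at -0.69 ± 0.43, is among the 11. Hist1h2bc, the H2B gene with the highest level per length (65.8 CPM per kilobase), lay on the higher side. It had 45.3, 35.4, 52.6 and 44.9 CPM with IgG and 56.4, 47.4, 63.1 and 62.5 CPM with the antibody. Antibody animals 1, 3 and 4 exceeded every IgG animal and antibody animal 2 fell among them, for a log2 fold change of 0.36 ± 0.14.

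Hist2h2bb, second by level at 38.4 CPM per kilobase, lay on the lower side. Its CPM were 20.2, 20.8, 34.4 and 19.3 with IgG and 10.7, 20.1, 11.6 and 14.4 with the antibody (-0.73 ± 0.25). IgG animal 3 stood far above the other IgG animals and antibody animal 2 inside their range. So the 2 H2B genes with the highest levels per length lay on opposite sides of 0, the second of them with no distinct 50-base window in its annotated transcript.

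Hist1h2bp had 1.54, 1.48, 1.05 and 1.42 CPM with IgG and 0.439, 0.981, 0.219 and 0.567 CPM with the antibody. The groups were apart, with a log2 fold change of -1.28 ± 0.40 on counts of 5 to 45. Hist1h2bk, at 3.08, 3.04, 4.51 and 3.41 CPM with IgG, had 1.61, 2.07, 2.19 and 1.17 CPM with the antibody. These groups were apart as well (-0.99 ± 0.25), as were those of Hist1h2bl (4.39 ± 0.745 against 2.24 ± 0.659 CPM, SD, n = 4) and, in the other direction, Hist1h2bn (2.46 ± 0.0715 against 3.58 ± 0.618 CPM).

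The H3 genes were nearly all lower, 9 of 10 tested members, with a median of -0.20. As a type they took the smallest share of the clustered histone counts, 5.44% to 6.97%. Only uniquely placed reads were counted, so this is not a rank by abundance. The share of 50-base windows found in other genes was 24.83% to 100% in the tested H3 genes and 0% to 32% in the tested H1 genes. Hist1h3e was the highest per length at 18.6 CPM per kilobase, with 7.80, 11.5, 9.02 and 8.50 CPM with IgG and 7.76, 9.78, 7.39 and 8.26 CPM with the antibody, which overlapped (-0.15 ± 0.16). Hist1h3c, second at 12.3 CPM per kilobase, had 6.57, 7.33, 7.18 and 6.58 CPM with IgG and 4.34, 5.92, 4.16 and 5.18 CPM with the antibody. It was the single H3 gene whose groups were apart (-0.49 ± 0.16).

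Hist1h3b had the lowest H3 log2 fold change, -0.82 ± 0.36, from 2.22, 2.63, 4.65 and 2.73 CPM with IgG and 1.03, 1.96, 1.23 and 2.67 CPM with the antibody. Its groups overlapped through antibody animal 4, and IgG animal 3 was the highest. Hist1h3h (1.94 ± 0.596 against 1.25 ± 0.324 CPM) was at -0.63 ± 0.30. The 1 tested H3 gene on the higher side was Hist1h3a (1.77 ± 0.586 against 2.51 ± 0.517 CPM), at 0.50 ± 0.30.

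The H4 genes encode almost the same protein, yet they held both ends of the range: 7 of 12 tested members were lower and 5 higher, with a median of -0.37. Hist1h4i (mm9, chromosome 13, 22132829 to 22133231, minus strand) had 11.2, 9.78, 12.1 and 10.7 CPM with IgG and 2.001, 5.71, 1.84 and 2.39 CPM with the antibody, from 41 to 335 counts per library. All 4 antibody animals lay below all 4 IgG animals, and antibody animal 2 lay between the groups' main ranges. The group means were 10.9 ± 0.962 and 2.99 ± 1.83 CPM (SD, n = 4), and the log2 fold change was -1.86 ± 0.34. Without antibody animal 2 it was -2.39.

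Hist1h4j, the opposite end, had 1.06, 1.11, 1.51 and 1.35 CPM with IgG and 2.93, 2.38, 1.58 and 2.71 CPM with the antibody. Its counts were low, from 24 to 68 per library. The groups were just apart, antibody animal 3 being close to IgG animal 3, and the log2 fold change was 0.93 ± 0.26. Hist1h4c also lay apart on the higher side, with 12.4, 10.7, 15.1 and 14.9 CPM with IgG and 15.9, 19.0, 19.5 and 27.4 CPM with the antibody (0.62 ± 0.19). It was the third H4 gene by level per length, at 44.9 CPM per kilobase, so the higher values were not limited to scarce transcripts.

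The most abundant H4 genes hardly differed. Hist1h4d, at 104 CPM per kilobase, had 37.1, 31.4, 42.9 and 36.8 CPM with IgG and 35.8, 43.3, 36.0 and 41.8 CPM with the antibody (0.08 ± 0.12). Hist1h4h, at 72.3, had 29.0, 24.0, 37.1 and 30.7 CPM with IgG and 28.8, 34.8, 29.9 and 37.4 CPM with the antibody (0.11 ± 0.15). In both genes the groups overlapped over nearly their full range. On the lower side after Hist1h4i came Hist1h4a (10.1 ± 3.24 against 5.85 ± 2.28 CPM), at -0.78 ± 0.32, whose groups overlapped.

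As shares of the counts on all H4 genes, which do not depend on library scaling, Hist1h4i took 7.29%, 7.92%, 6.54% and 6.88% with IgG and 1.57%, 3.53%, 1.47% and 1.42% with the antibody. Hist1h4c took 8.07%, 8.63%, 8.16% and 9.63% with IgG and 12.5%, 11.7%, 15.5% and 16.3% with the antibody. Hist1h4h (18.9% to 20.1% with IgG, 21.5% to 23.8% with the antibody) and Hist1h4j also held larger shares in every antibody animal than in any IgG animal, while Hist1h4d did not separate. In the other direction, Hist1h4n (2.58% to 3.07% with IgG, 1.88% to 2.56% with the antibody) and Hist1h4b (2.85% to 3.48% and 2.16% to 2.75%) held smaller shares in every antibody animal. Shares of a sum are tied to each other, so a small share of Hist1h4i leaves more for every other H4 gene, and these values carry the choice of the family on Hist1h4i.

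**Figure D3:**
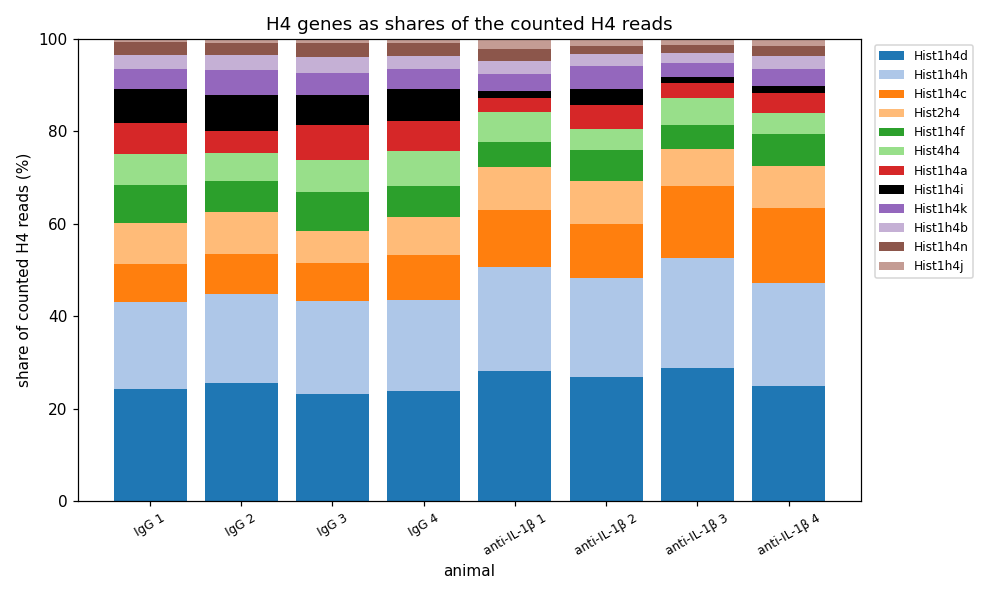
Share of the counted H4 reads (vertical axis, percent) that fell on each H4 gene, 1 stacked bar per animal, genes ordered by their mean share. Hist1h4i, in black, takes 6.54% to 7.92% in the IgG animals and 1.42% to 3.53% in the antibody animals.

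Position in the cluster was looked at next, since histone genes sit in close pairs that are read outwards from a shared stretch of DNA. There were 11 such H2A and H2B pairs with less than 500 bases between the genes in the mm9 coordinates (172 to 305 bases), and both genes were tested in 10. The 2 genes lay on the same side of 0 in 8 pairs, among them the pseudogene Hist3h2bb-ps with Hist3h2a (-0.69 and -0.16). Over all 208 pairings of a tested H2A with a tested H2B gene, 51.4% lay on the same side, and with 10 pairs no test was made. Hist1h2ac and Hist1h2bc were both higher (0.48 and 0.36), Hist1h2bl and Hist1h2ai both lower (-0.97 and -0.43), and Hist2h2ac and Hist2h2be both near 0 (0.08 and 0.10).

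The 2 exceptions were Hist1h2ak with Hist1h2bn (-0.46 and 0.54) and Hist1h2an with Hist1h2bp (0.56 and -1.28). Hist1h2ak had 6.26, 7.75, 6.35 and 6.28 CPM with IgG and 4.30, 5.82, 4.90 and 4.37 CPM with the antibody. Its partner Hist1h2bn, 210 bases away, had 2.43, 2.44, 2.56 and 2.40 CPM with IgG and 2.73, 3.75, 3.63 and 4.21 CPM with the antibody. In this pair both genes had groups that did not overlap, in opposite directions. The header of the count table shows no strand option, but the table's exons of these 2 genes do not overlap.

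**Figure D4:**
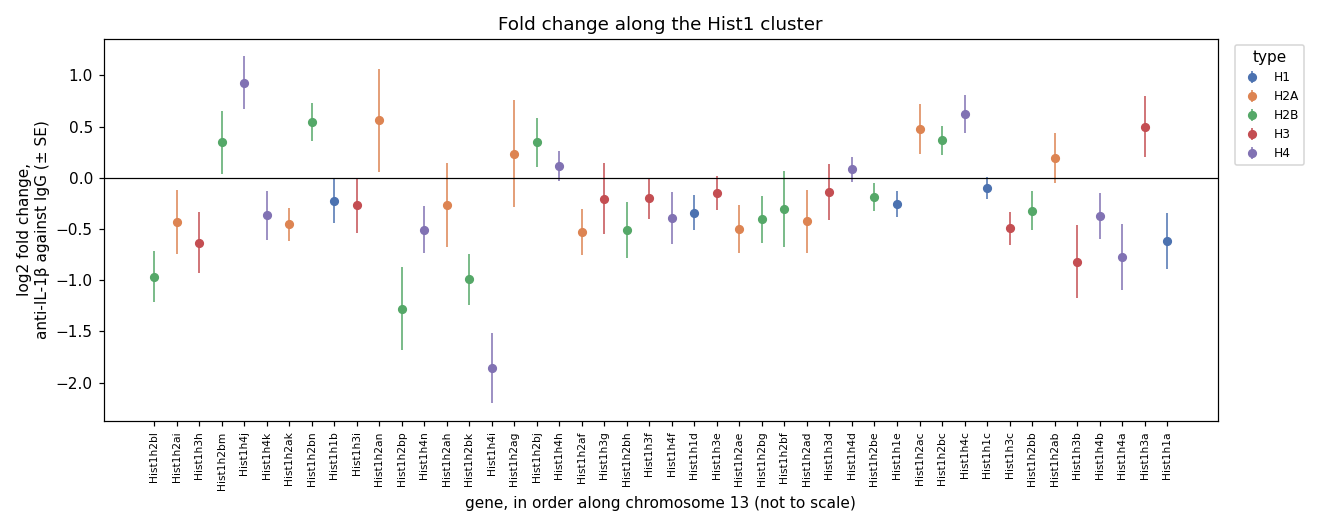
Log2 fold change of antibody against IgG (vertical axis, ± SE, 4 animals a group) for the 46 tested genes of the Hist1 cluster in their order along chromosome 13, not to scale, coloured by type. Hist1h2ac, Hist1h2bc and Hist1h4c, at 0.48, 0.36 and 0.62, stand side by side above 0. Hist1h2bk and Hist1h4i, at -0.99 and -1.86, stand side by side below it. The next genes along, Hist1h1c after Hist1h4c and Hist1h2ag after Hist1h4i, lie across 0 at -0.10 and 0.24.

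Neighbours of different type could also lie together. Among the tested genes, Hist1h4c stands next to the pair Hist1h2ac and Hist1h2bc, and Hist1h4i next to Hist1h2bk. Their tested neighbours on the other flank lay across 0, Hist1h1c beside Hist1h4c at -0.10 and Hist1h2ag beside Hist1h4i at 0.24. How often neighbours lie on the same side was not counted over the whole cluster. How far the annotated transcript taken for the search runs past the stem-loop was compared as well. Transcripts that run on can carry a poly(A) tail. With a limit of 100 bases, chosen after the values were seen, 18 tested members with a short end had a median log2 fold change of -0.31, 20 with a longer end -0.17, and 18 with no stem-loop match -0.32. Hist1h4i, Hist1h4c and Hist1h4j all belonged to the second class, with 330, 454 and 385 bases past the stem-loop, so both extremes were of this class. Their counted exons span 403, 375 and 312 bases against annotated transcripts of 727, 820 and 774. The counts therefore need not cover the stretch past the stem-loop.

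Summed over the members of a type, the histone counts differed little between the groups. All 68 members together had 551, 550, 653 and 568 CPM with IgG and 509, 571, 467 and 573 CPM with the antibody, a ratio of means of 0.913. Antibody animals 1 and 3 lay below every IgG animal, and animals 2 and 4 among them. The ratios by type were 0.871 for H1, 0.925 for H2A, 0.953 for H2B, 0.838 for H3 and 0.946 for H4. Antibody animals 1 and 3 also had the lowest 2 sums of the 8 in H2A and H3, and every type overlapped between the groups.

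**Figure D5:**
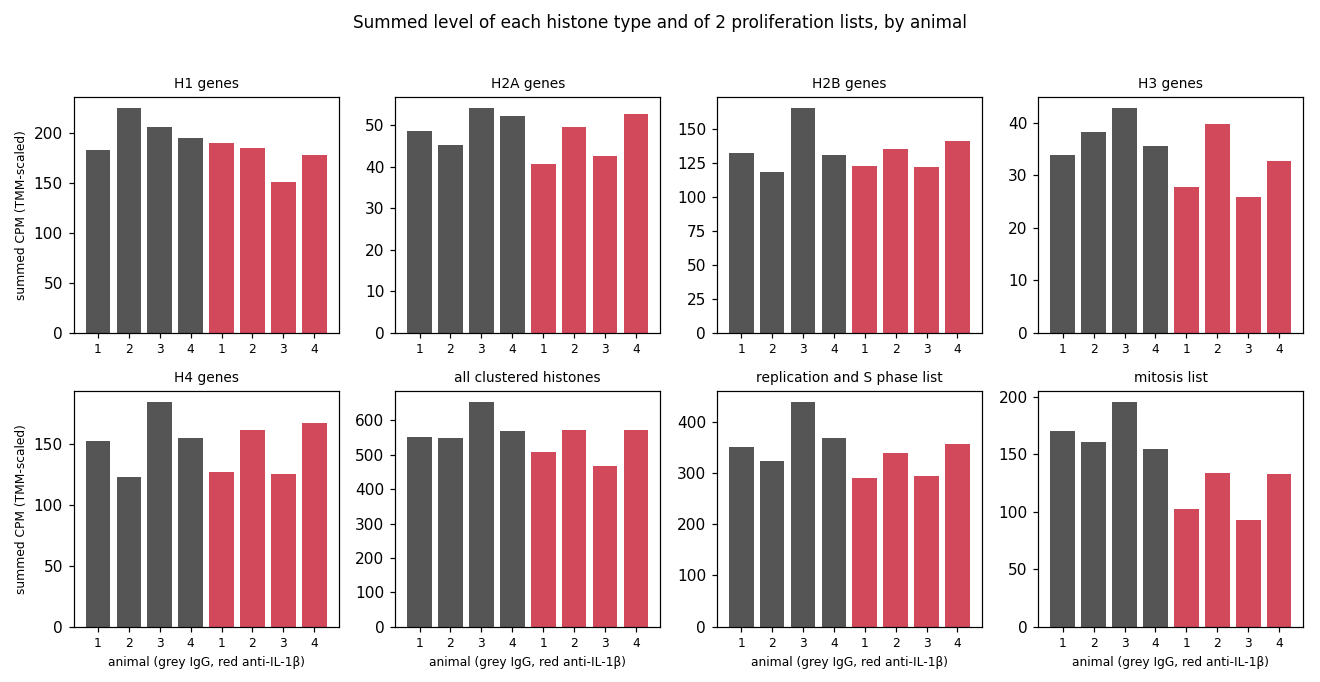
Summed TMM-scaled CPM in each animal (bars, from 0, grey for IgG animals 1 to 4 and red for antibody animals 1 to 4) of each histone type, of all clustered histone genes, and of the lists of replication and mitosis genes. Antibody animals 1 and 3, at 509 and 467 CPM, have the lowest sums of all clustered histones, and the mitosis list is below 135 in all 4 antibody animals and above 154 in all 4 IgG animals.

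The genes that accompany histone synthesis were described from lists chosen with earlier results of these data known, and none of their members was called in edgeR's quasi-likelihood test. At an unadjusted p under 0.05, 4 genes of the replication list, 6 of the mitosis list and 1 replacement histone were lower, where 2.06% of all tested genes were. The counts of lower genes below stand against 52.3% of all tested genes. Of 27 genes of DNA replication and S phase, 24 were lower and 3 higher, with a median log2 fold change of -0.20. Their summed CPM were 352, 323, 438 and 369 with IgG and 291, 339, 295 and 357 with the antibody, with the same antibody animals, 1 and 3, lowest. Lig1, the DNA ligase that joins Okazaki fragments, had 13.6 ± 0.536 CPM with IgG and 10.7 ± 0.250 CPM with the antibody, and Pcna, the sliding clamp, had 58.5 ± 22.5 and 49.3 ± 9.92 CPM. Ccna2, the S phase cyclin A2, had 8.37 ± 1.26 and 5.89 ± 1.07 CPM, and Mcm3, a subunit of the replicative helicase, 20.2 ± 2.72 and 15.9 ± 1.78 CPM.

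All 12 genes of the mitosis list were lower, with a median of -0.54, and their summed CPM, 171, 161, 195 and 155 with IgG and 102, 134, 92.8 and 133 with the antibody, did not overlap. Mki67, which encodes the Ki-67 proliferation marker, had 66.7 ± 6.69 CPM with IgG and 45.4 ± 7.19 CPM with the antibody (SD, n = 4). Kif11, a motor of the spindle, had 12.5 ± 1.49 and 7.87 ± 1.62 CPM, and Cenpf, a kinetochore protein, 14.5 ± 0.953 and 10.1 ± 1.88 CPM. Within the antibody group, animals 2 and 4 had both the higher mitosis sums and the higher clustered histone sums. How far the number of dividing cells bears on the histone values was not tested.

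Genes that act on histone promoters and on the histone message stayed close to 0 in both directions. Of 19 such genes 12 were lower and 7 higher, with a median of -0.06. Slbp, the stem-loop binding protein, had 20.1, 19.2, 25.9 and 24.2 CPM with IgG and 22.6, 20.8, 23.4 and 24.6 CPM with the antibody, a log2 fold change of 0.03 ± 0.12. Lsm11, a subunit of the U7 particle that helps cut the message after the stem-loop, had 11.6 ± 2.92 and 13.2 ± 1.19 CPM, and Npat, the coactivator of histone genes, 31.6 ± 3.78 and 30.4 ± 3.09 CPM. Hinfp, the factor of the H4 element, had 12.2 ± 2.26 and 12.3 ± 2.96 CPM. Cpsf3, the endonuclease that cuts the message, had 45.0 ± 2.51 and 40.6 ± 2.16 CPM, and Casp8ap2, a component of the histone locus body, 40.3 ± 4.54 and 36.9 ± 2.88 CPM.

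Replacement histones, which are also made outside S phase from single genes with poly(A) tails, were lower in 9 of 11 cases, with a median of -0.12. H2afx, which encodes the H2A variant marked at DNA breaks, was the one whose groups were apart: 11.3, 12.7, 11.2 and 9.65 CPM with IgG against 8.64, 8.55, 8.45 and 7.73 CPM with the antibody (-0.42 ± 0.13). H2afx is also made in S phase in a stem-loop form. H3f3b, an H3.3 gene, had 232 ± 58.5 and 220 ± 23.9 CPM, and H2afz had 68.7 ± 17.7 and 59.6 ± 5.76 CPM. H2afy, a macroH2A gene, had 62.2 ± 4.98 and 55.6 ± 2.67 CPM, and H1fx, a linker histone gene, 1.68 ± 0.468 and 1.25 ± 0.254 CPM. Per length, H3f3b at 113 CPM per kilobase stood near the top clustered genes, Hist1h1c (133) and Hist1h4d (104). Of 13 histone chaperones, which carry histones to DNA, 10 were lower and 3 higher, with a median of -0.07. The values were 3.03 ± 0.753 and 2.37 ± 0.551 CPM in Chaf1b, 20.6 ± 3.05 and 18.9 ± 1.92 CPM in Nasp, and 119 ± 22.2 and 107 ± 15.4 CPM in Nap1l1.

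The cells of the lesion were checked by defining markers. Smooth muscle, macrophage and endothelial markers were present in every library. Of 4 smooth muscle markers 0 were lower (summed CPM 1656 to 2476 with IgG and 1102 to 3483 with the antibody), of 5 macrophage markers 5 were lower (809 to 1881 and 958 to 1330), and of 4 endothelial markers 3 were lower (1251 to 1473 and 1187 to 1456). Antibody animals 2 and 4, with the higher histone sums in their group, also had the higher smooth muscle sums there, 3483 and 3032 CPM against 1700 and 1102 CPM in animals 1 and 3. Their part in the histone values was not tested.

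Thymocytes divide fast, and their markers were uneven. The summed CPM of 6 thymocyte markers, 4 of which were tested, was 82.6, 7.70, 2.52 and 4.83 with IgG and 15.5, 64.8, 4.46 and 6.84 with the antibody, so that IgG animal 1 and antibody animal 2 stood apart. Antibody animal 2 was the highest of its group in 29 of the 56 tested members, Hist1h4i among them. IgG animal 1, with the highest thymocyte sum, was the highest of its group in 9 and the lowest in 14. IgG animal 3, with the lowest thymocyte sum, was the highest in 31. Members of an animal are not independent of each other, and the part of thymocytes in the histone values was not tested. Without these 2 animals, a choice made after the data were seen, the members' median log2 fold change was -0.43, with 39 members again lower, Hist1h4i was at -2.38, and the ratio of the summed CPM was 0.874. Summed CPM of 6 B cell markers, with 5 tested and all 5 lower, was 4.40 to 16.3 with IgG and 3.22 to 6.23 with the antibody. The 4 thymic epithelium markers, of which only 1, Ccl25, was tested, summed to 2.36 to 45.6 and 2.59 to 3.06 CPM. The 4 erythroid markers, of which 2 were tested and Hbb-b1 was listed at 0 throughout, summed to 30.4 to 109 and 42.4 to 88.7 CPM.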

How the data were processed

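RNA of 8 lesions, 1 per animal, was sequenced. The authors deposited raw counts per gene symbol, made with featureCounts 1.4.6-p4 over exons grouped by gene name (UCSC mm9), per the file headers. The submitters' processing notes also list STAR 3.0, CASAVA, DESeq2 and Subread and assign them no step. Read length is not given in the sources used here. The status table deposited beside the counts lists multimapping and ambiguous alignments as unassigned, so they are not in the counts. The exon length used for values per kilobase is a deposited column in bases. Every per-sample column was used.

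Genes were kept by filterByExpr (minimum count 10, minimum total 15), which left 15980. They were scaled by TMM and fitted with edgeR's robust quasi-likelihood test (edgeR 4.0.16, R 4.3.3), 4 antibody against 4 IgG animals, with no covariate and Benjamini-Hochberg adjustment. On simulated counts for these 15980 genes the test recovered 67 of 100 genes changed 2-fold and 97 of 100 changed 4-fold, with 6 false calls. The changed genes were drawn only from those above a minimum mean count, which members such as Hist1h4j, Hist1h2an and Hist1h2bp did not reach. Recovery was therefore not measured for such scarce genes. DESeq2 1.42.0 and limma-voom (limma 3.58.1) were alternatives, with other scalings, filters, a replicate block and animals left out. Counts per library (20137336 to 29453014) set the precision of each value. The ribosomal precursor Rn45s took 1.76% to 7.12% of counts (two-sided exact permutation test between groups, p = 0.743), and no pair of libraries agreed within sampling noise (lowest chi-square per degree of freedom 26.5).

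The members and lists were chosen with earlier results of these data known. Named in full were, per type, the 2 members with the highest counts per kilobase and the 2 with the largest absolute log2 fold change, plus Hist1h4i, and of each list of pathway genes up to 3 with the smallest p, plus Slbp, Mki67, Pcna, H3f3b and H2afz. The rule also covered the lists of cell type markers, which are given here by counts and sums only. Others named in the text, among them Hist1h4c, Hist1h4a, Hist1h3a, Hist1h2ak, Hist1h2bl, Hist1h2bn, Npat and Hinfp, were added after their values were seen. The coordinates of members are mm9, and sequences come from GENCODE M21 (GRCm38) and RefSeq (GRCm38.p6), with no conversion between them.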

Additional observations from a re-analysis of the deposited data

Results flagged for a closer look

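Of 126 groups of 4 animals tested with Dixon's criterion for a single far value, 7 held 1 animal far from the other 3, where chance alone gives about 1 in 20. Among the histone genes, Hist1h4i had 5.71 CPM in antibody animal 2, against 2.39 CPM or less in the other 3. Hist2h2bb had 34.4 CPM in IgG animal 3, against 20.8 CPM or less. Hist1h2an had 0.243 CPM in antibody animal 4, against 0.635 CPM or more, on few counts. Of the genes described beside them, Lig1 had 10.4 CPM in antibody animal 3, below 10.8 CPM or more in the others, and Lsm11 had 15 CPM in antibody animal 2, above 12.7 CPM or less. Dntt, a thymocyte gene, had 11.8 CPM in IgG animal 1, above 0.184 CPM or less, and Ccl25, a thymic epithelium gene, had 16.8 CPM there, above 2.77 CPM or less.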

How the results depend on the processing

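Across 16 alternative fits, 50 of the 56 members kept their side of 0 in every fit in which they were tested (37 lower, 13 higher), and the other 6 were Hist3h2ba and 5 Hist2 genes with values near 0. Hist1h4i lay between -2.39 and -1.69, with adjusted p from 0.000405 to 1. It was the 1 histone gene, and the 1 H4 gene, past an adjusted p of 0.05 in DESeq2 (0.000405), without antibody animal 2 (0.0112, edgeR) and without IgG animal 1 and antibody animal 2 together (0.0494, edgeR, chosen after seeing the data); leaving out single animals gave 0 to 1 such genes. Over all genes, 8 passed in DESeq2, 0 to 1 with 1 animal left out and 1 without those 2 animals. At an unadjusted p under 0.05 there were 310 (without IgG animal 4) to 1517 (without IgG animal 1) genes with 1 animal left out, 783 without antibody animal 2, 336 without antibody animal 3 and 1282 without the pair. Of these genes 35.4% were higher in the main analysis and 53.1% with total-count scaling. The share was 57.4% without IgG animal 1, 54.9% without antibody animal 2 and 57.6% without the pair. The cause was not tested.

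The ratio of summed CPM passed 1 without IgG animal 3 for H2B (1.024) and H4 (1.013). With 1 animal left out, replacement histones had a median between -0.17 (without IgG animal 1) and -0.028 (without IgG animal 3). Ccl25, the only thymic epithelium marker tested, then lay between -1.52 and 0.16. The number of markers below 0 moved as follows. Smooth muscle had 1 in limma-voom and with the replicate block, 0 to 3 with 1 animal left out and 2 without the pair of animals. Macrophage markers had 3 without IgG animal 3, and thymocyte markers 0 to 5 with 1 animal left out. Thymic epithelium had 4 with a median of -4.32 with no filter, where all 4 were tested. The single tested marker, Ccl25, was not below 0 without IgG animal 1 (0.16) or without the pair (0.19). B cell markers had 3 under the stricter filter, where 3 were tested. Erythroid markers, of which 2 were tested in the main analysis, had 2 with no filter and 0 to 2 with 1 animal left out. Without the pair they had 0, with a median of 0.65.

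The deviations of same-numbered animals from their group means had correlations of 0.29, -0.34, -0.13 and -0.00. Only IgG animal 1 matched the antibody animal of its own number best. So few values cannot exclude pairing, and the labels do not say whether equal numbers mark pairs. With the replicate block the members' median was -0.29, 39 members were lower, and 0 of all genes passed an adjusted p of 0.05 (edgeR), with 361 at an unadjusted p under 0.05. Low counts limit members such as Hist1h2an and Hist1h2bp, and shared sequence limits the near-identical genes.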
